A study of Homo sapiens with 15 samples.

Results

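Dimethylamine is a small, volatile and alkaline amine, and this is an account of how RNA levels in lung-derived cells moved along its concentration. Samples were chosen by group, and 12 of the 15 arrays, those in CA, LD, MD or HD, have a stated concentration. The 3 NEC arrays, which had no applied concentration, did not enter the slope. For each of 135750 transcript clusters (the units in which the Human Clariom D array reports genes) the slope of the log2 signal on concentration was fitted with limma over the 12 arrays, and the shape of each response was described. A slope is given as the change in log2 signal per 10 ppm, and a slope counted as called where its p, adjusted by Benjamini-Hochberg over all clusters, was below 0.05.

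All cells were A549, a human lung adenocarcinoma line, cultured as a confluent layer on porous membranes with air above and serum-free medium below. Clean air control cells (CA, 0 ppm) received the flow of air alone. Cells of the low dose (LD, 14.9 ppm), mid dose (MD, 41.1 ppm) and high dose (HD, 81.7 ppm) received dimethylamine vapour in the same flow. NEC cells received no flow. An exposure lasted 60 min, recovery took the next 23 h, and the cells went through 3 such rounds within 72 h. There were 3 arrays per group. Each array held RNA pooled from 2 wells, so a p-value here speaks of the spread among pools of 1 cell line. The labels assign LD to exposure plate 1, MD to plate 5 and HD to plate 6, with all 3 arrays of a dose on its plate, and CA had 1 array on each of these plates (CA replicate 1 on plate 1, replicate 2 on plate 5, replicate 3 on plate 6). Dose and plate therefore overlap, and for the genes described in full either the differences between each dose and the single CA array of its own plate or the adjusted p with the plate as a block is given. The methods describe fewer vapour wells on a plate than 3 pools of 2 wells need, and it is not known whether each number marks a single physical plate. A comparison within a plate is here one within a plate number.

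The airway epithelium meets inhaled irritants first and answers with chemokines, growth factors of the EGF family and stress programs. NF-kB factors drive many inflammatory genes, the transcription factor ATF4 and its target CHOP (DDIT3) mediate the integrated stress response, and p53 drives genes of growth arrest and apoptosis. A549 cells also express many genes of hepatocyte type, among them those for complement and coagulation proteins and for alcohol dehydrogenases.

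The slope was called for 101 of 135750 clusters (0.0744%). The signal rose with concentration in 64 clusters (0.0471%) and fell in 37 (0.0273%), and 10247 clusters had an unadjusted p below 0.05. With each array centred on its bright clusters, 60 rose and 58 fell. Absolute slopes of the called clusters ran between 0.133 and 0.476 per 10 ppm, with a median of 0.200. Exactly 1 gene symbol was held by 67 of the called clusters, which is 0.2% of the 33458 symbols measured. Of these genes, 45 rose (0.134% of symbols) and 22 fell (0.0658%). Among the risers were 38 protein-coding genes, 2 long non-coding RNAs, 4 pseudogenes and 1 vault RNA, and all 22 fallers were protein coding. With plate entered as a block, 17 clusters were called (0.0125%), and of these 67 genes, FN1 and ADH6 kept their calls while 65 lost theirs (adjusted p of 0.0540 to 0.466). The other 34 called clusters have no single symbol in the probe annotation, and they include both the smallest adjusted p among the falls (TC0500013412.hg.1, slope -0.287, adjusted p = 0.00167) and a rise of similar size (TC2000007203.hg.1, slope 0.269, adjusted p = 0.00704). In bulk RNA, fewer cells of a kind and less RNA per cell cannot be told apart.

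The steepest slope belonged to CCL20, a chemokine that attracts cells bearing the receptor CCR6. Its log2 signals were 4.83, 6.68 and 7.50 in CA, 5.43, 5.62 and 4.95 in LD, 8.06, 8.37 and 8.97 in MD and 8.99, 9.77 and 9.73 in HD. All MD and HD arrays lay above all CA and LD arrays, whereas the CA arrays were spread widely and the LD mean was below the CA mean. The slope was 0.476 per 10 ppm (SE 0.0804, adjusted p = 0.0399), which over the range of 0 to 81.7 ppm is a fitted 14.8-fold higher signal; the HD and CA means differed 8.90-fold, and the slope with plate as a block, 0.283 (adjusted p = 0.0895), gives 4.97-fold. Against the CA array of the same plate, the difference was 0.50 on plate 1 (LD), 1.78 on plate 5 (MD) and 1.99 on plate 6 (HD), so the LD arrays were above the CA array of their own plate. The gene lies on chromosome 2, from 227813842 to 227817556 (GRCh38).

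NFKB2, the gene of the NF-kB subunit p100/p52, rose as well, at 0.295 per 10 ppm (SE 0.0469, adjusted p = 0.0273). Its log2 signals were 6.31, 6.98 and 6.54 in CA, 6.50, 6.06 and 6.10 in LD, 6.83, 7.27 and 7.59 in MD and 8.03, 8.46 and 9.79 in HD. The HD arrays were all above the others, while 1 MD array was within the CA range and LD lay in or below it. Within plates, NFKB2 differed from CA by -0.08 on plate 1 (LD), 0.25 on plate 5 (MD) and 2.22 on plate 6 (HD), and the call was lost with plate as a block (adjusted p = 0.375). EREG (epiregulin), a ligand of the EGF receptor, had log2 signals of 7.63, 8.06 and 8.17 in CA, 8.14, 8.15 and 8.25 in LD, 8.71, 9.30 and 9.71 in MD and 9.94, 9.99 and 9.86 in HD. The 3 MD and 3 HD arrays stood above every CA and LD array, and the HD arrays were within a narrow range. The slope of EREG was 0.253 per 10 ppm (SE 0.0289, adjusted p = 0.00704), the smallest adjusted p of any named gene, and with plate as a block EREG did not pass (adjusted p = 0.0648). Its differences within plates were 0.55 (LD), 1.18 (MD) and 1.75 (HD).

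**Figure D1:**
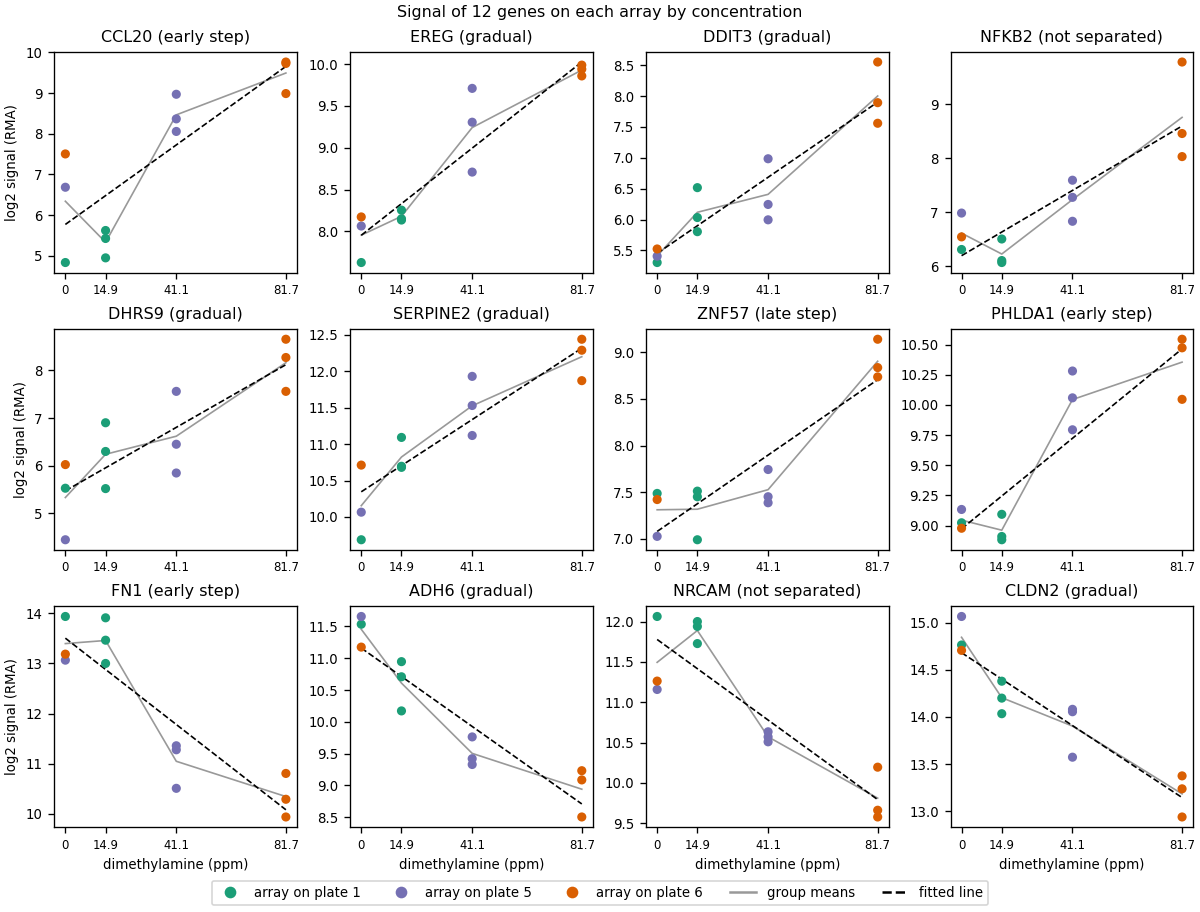
Log2 signal (RMA) of 12 genes with a called slope against dimethylamine concentration in ppm; each point is 1 array, coloured by exposure plate, the grey line joins the group means of 3 arrays and the dashed line is the fitted slope. The HD arrays of every gene shown lie outside its CA range; CCL20, PHLDA1 and FN1 change mainly between 14.9 and 41.1 ppm and ZNF57 between 41.1 and 81.7 ppm.

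Promoters of CCL20 and NFKB2 are shown because both genes are known targets of NF-kB, and those of a few other genes are given with them in turn. Each sequence holds the 300 bases around a gene start (RefSeq, GRCh38.p14), most of them before it, and 34 of the 45 risers and all 22 fallers matched a symbol in that table. The kB motif, spelled GGGNNTTCC on either strand, was found in the first listed promoter of 5 of 34 risers (CCL20, DCLK1, MIR222HG, RPS27L, TFPI2) and 0 of 22 fallers, against 6.6% of 27305 promoters. CCL20 (chr2:227813592-227813891, plus strand) has 1 match, and NFKB2 has matches in 2 of its 3 listed promoters, of which the first with a match is shown (chr10:102394328-102394627, plus strand). Capitals mark the matched letters, which in NFKB2 include overlapping matches; a match is a description of the letters only.
CCL20 promoter: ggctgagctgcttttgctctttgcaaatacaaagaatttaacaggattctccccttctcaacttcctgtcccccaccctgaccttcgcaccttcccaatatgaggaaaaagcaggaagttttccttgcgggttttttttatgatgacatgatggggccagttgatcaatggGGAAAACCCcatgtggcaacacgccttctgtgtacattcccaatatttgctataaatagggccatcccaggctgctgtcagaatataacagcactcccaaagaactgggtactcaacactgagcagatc
NFKB2 promoter: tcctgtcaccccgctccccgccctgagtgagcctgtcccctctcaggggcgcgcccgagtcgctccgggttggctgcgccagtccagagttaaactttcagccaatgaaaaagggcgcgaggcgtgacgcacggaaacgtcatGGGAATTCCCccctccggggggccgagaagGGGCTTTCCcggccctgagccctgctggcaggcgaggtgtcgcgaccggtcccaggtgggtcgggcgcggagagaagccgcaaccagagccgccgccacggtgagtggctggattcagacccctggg

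DDIT3, which encodes CHOP, had log2 signals of 5.30, 5.41 and 5.52 in CA, 5.80, 6.52 and 6.03 in LD, 6.24, 6.00 and 6.98 in MD and 7.89, 7.56 and 8.55 in HD. Every LD, MD and HD array was above every CA array, and all HD arrays were above the MD arrays. The slope was 0.3 per 10 ppm (SE 0.0354, adjusted p = 0.00806), a fitted 5.47-fold higher signal at 81.7 ppm. Within plates the differences from CA were 0.81 on plate 1 (LD), 1.00 on plate 5 (MD) and 2.48 on plate 6 (HD), and with the plate as a block DDIT3 did not pass (adjusted p = 0.0749). ASNS, the asparagine synthetase that ATF4 induces, rose at 0.19 per 10 ppm (SE 0.0314, adjusted p = 0.0371). Its log2 signals were 10.66, 11.23 and 10.82 in CA, 10.70, 10.97 and 10.55 in LD, 11.18, 11.34 and 11.90 in MD and 12.09, 12.01 and 12.81 in HD. The CA and LD arrays of ASNS overlapped, and only the HD arrays all lay above the rest. Within plates ASNS differed by 0.08 (LD), 0.24 (MD) and 1.48 (HD), with an adjusted p of 0.356 in the blocked fit.

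DDIT3 and ASNS were the 2 of 30 measured ATF4 and CHOP targets that rose, and none fell. Over the list, 28 of 30 slopes were positive and the median slope was 0.0951. Among all 33458 symbols, 20141 slopes were positive and the median was 0.00866. With arrays centred on bright clusters, 28 of the 30 and 14598 of all symbols had positive slopes. Members that did not pass included ATF3 (slope 0.312, adjusted p = 0.0637), GDF15 (0.220, adjusted p = 0.147) and PPP1R15A (0.192, adjusted p = 0.0611). Fitted with plate as a block, the list had a median of 0.0572. The ER chaperones and XBP1 branch, another arm of the unfolded protein response, had no called member among 22, and its median slope was -0.0159 (-0.0643 with plate as a block, with 3 of 22 positive). Of the p53 targets, 3 of 22 rose: PMAIP1 (NOXA), a pro-apoptotic BH3-only protein, at 0.242, MDM2, the ubiquitin ligase of p53, at 0.211, and GADD45A, a growth arrest gene, at 0.204. Log2 signals of MDM2 were 10.86, 12.02 and 12.07 in CA, 11.58, 11.68 and 11.70 in LD, 12.61, 12.57 and 12.83 in MD and 12.93, 13.45 and 13.29 in HD. The MD and HD arrays were all above the CA and LD arrays, and the LD and CA means were both 11.65. MDM2 did not pass with plate as a block (adjusted p = 0.222). The median slope of the p53 list was 0.0931, with 21 of 22 positive. CDKN1A, the p53-induced inhibitor of cyclin-dependent kinases, had a slope of 0.276 and did not pass (adjusted p = 0.0592).

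The ATF4 and C/EBP composite motif, TGATGNAA on either strand, was found in 1 of 34 risers (ASNS) and 2 of 22 fallers (ADH6, C4BPA), against 3.67% of all promoters. It is shown for ASNS (chr7:97872359-97872658, minus strand, 1 of 2 listed promoters), and the AP-1 motif TGACTCA was in 4 of 34 risers (CAPN8, DCLK1, DDIT3, MT2A) and 2 of 22 fallers (APOH, KCNJ16), against 4.92%.
ASNS promoter: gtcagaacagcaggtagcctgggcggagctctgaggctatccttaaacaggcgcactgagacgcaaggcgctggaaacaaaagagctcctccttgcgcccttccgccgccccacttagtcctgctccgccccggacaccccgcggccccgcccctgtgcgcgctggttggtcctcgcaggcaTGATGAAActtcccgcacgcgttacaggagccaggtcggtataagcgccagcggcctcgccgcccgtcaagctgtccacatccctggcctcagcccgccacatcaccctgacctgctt

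Metallothioneins, small proteins that bind zinc and other metals, rose in 1 of 9 measured members. MT2A had log2 signals of 12.83, 12.34 and 13.02 in CA, 12.84, 12.80 and 12.63 in LD, 13.06, 13.41 and 13.86 in MD and 13.87, 13.91 and 14.14 in HD. Its HD and MD arrays all exceeded the CA and LD arrays, and CA and LD overlapped. Within plates MT2A differed by -0.07 (LD), 1.11 (MD) and 0.95 (HD). The slope was 0.164 per 10 ppm (SE 0.027, adjusted p = 0.0356; adjusted p = 0.0695 with arrays centred on bright clusters and 0.342 with the block), and that of the list had a median of 0.0895 (8 of 9 positive; 0.0478 with the plate as a block). The pseudogene MT1JP also rose (slope 0.147), but probes of this family share near-identical sequence and cannot always be told apart. The core of the metal response element, TGCGCNC or TGCACNC on either strand, is short and occurs in 29.3% of all promoters, in 14 of 34 risers and in 5 of 22 fallers; the MT2A promoter (chr16:56608334-56608633, plus strand) holds 8 matches.
MT2A promoter: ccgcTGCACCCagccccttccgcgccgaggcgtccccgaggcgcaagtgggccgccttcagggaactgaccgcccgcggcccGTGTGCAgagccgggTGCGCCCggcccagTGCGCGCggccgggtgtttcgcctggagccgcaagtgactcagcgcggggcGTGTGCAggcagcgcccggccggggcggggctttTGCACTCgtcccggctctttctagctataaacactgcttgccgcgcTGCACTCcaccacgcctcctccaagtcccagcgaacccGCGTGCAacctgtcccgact

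DHRS9, a dehydrogenase of retinol and steroids, had the next steepest rise after CCL20, with log2 signals of 5.53, 4.45 and 6.03 in CA, 5.52, 6.90 and 6.30 in LD, 5.85, 6.45 and 7.56 in MD and 7.56, 8.66 and 8.27 in HD. The HD arrays were at the top, 1 HD array was level with the highest MD array, and CA overlapped LD. The slope was 0.324 per 10 ppm (SE 0.0538, adjusted p = 0.0375). Within plates DHRS9 differed by 0.71 (LD), 2.17 (MD) and 2.14 (HD), with an adjusted p of 0.228 in the blocked fit. EMP3, a tetraspan membrane protein, had log2 signals of 11.53, 12.11 and 12.64 in CA, 13.34, 13.11 and 13.31 in LD, 13.50, 13.94 and 14.37 in MD and 14.30, 14.56 and 14.96 in HD. LD was above CA and MD above LD without overlap, MD and HD overlapped, and the slope was 0.282 per 10 ppm (SE 0.0403, adjusted p = 0.017). Differences of EMP3 within plates were 1.72 (LD), 1.83 (MD) and 1.97 (HD), with an adjusted p of 0.141 in the blocked fit. NEC arrays of EMP3, which are outside the fit, lay below CA, at 9.56, 10.14 and 9.82. This was not particular to EMP3: all NEC arrays were also below all CA arrays in ANXA10 and CD79A. In CCL20 and NFKB2 the NEC and CA ranges overlapped, and in DDIT3 the NEC arrays were above CA.

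Inhibitors of serine proteases were among the risers. SERPINE2 (protease nexin-1) had log2 signals of 9.69, 10.07 and 10.71 in CA, 10.70, 10.68 and 11.09 in LD, 11.12, 11.53 and 11.93 in MD and 11.87, 12.29 and 12.44 in HD. Both MD and HD lay above all CA and LD arrays, and 1 CA array reached the LD range. Its slope was 0.241 per 10 ppm (SE 0.0331, adjusted p = 0.0163), and the call was lost with plate as a block (adjusted p = 0.184). SPINK1, an inhibitor of trypsin, rose at 0.226 and TFPI2, a Kunitz-type inhibitor of plasmin, at 0.226 per 10 ppm. Within plates SPINK1 differed by 0.74 (LD), 1.17 (MD) and 2.05 (HD). TFPI2 differed by 1.18 (LD), 1.15 (MD) and 1.12 (HD), which did not grow with concentration. Neither passed with plate as a block (adjusted p of 0.141 and 0.329). SERPINE2, SPINK1 and TFPI2 were the 3 of 17 measured serine protease inhibitors and plasminogen activation genes that rose, and the list median was 0.0445 (0.00971 with plate as a block).

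Among genes of lipid metabolism, ACSS2, which makes acetyl-CoA from acetate, rose at 0.274 per 10 ppm (SE 0.048, adjusted p = 0.0465). Within plates ACSS2 differed by 1.82 (LD), 1.49 (MD) and 1.72 (HD), so these differences did not grow with concentration. With plate as a block ACSS2 did not pass (adjusted p = 0.216). ACSS2 was the 1 of 10 measured genes of fatty acid synthesis and desaturation that passed, and 6 of the 10 slopes were positive, with a median of 0.0119. ACAT2, a thiolase of the sterol pathway, rose at 0.196 (adjusted p = 0.0182), and NPC1, which exports cholesterol from lysosomes, at 0.224 (adjusted p = 0.0152); both are outside the lists. None of the 18 measured genes of the list for cholesterol synthesis and uptake passed, while all 18 slopes were positive, with a median of 0.112 (0.104 in the plate-blocked fit). The steepest of them were MVD (slope 0.188, adjusted p = 0.101) and NSDHL (0.140, adjusted p = 0.117). Of the replication-dependent histones, whose transcripts mostly lack a poly(A) tail, 43 of 44 had positive slopes with a median of 0.0930 (0.0558 in the plate-blocked fit), and none passed. The steepest was H2AC11 (slope 0.239, adjusted p = 0.0532).

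Immediate early and ERK feedback genes had a median slope of 0.105 (25 of 26 positive), and 2 of 26 rose, EREG and PHLDA1. In the fit with exposure plate as a block, that median fell to 0.00355 and 13 of 26 slopes were positive. EGR1, an early growth response factor, had group means of 8.03 in CA, 4.86 in LD, 8.13 in MD and 9.02 in HD, and it did not pass (adjusted p = 0.650). Over the 12 arrays, the profiles most like that of CCL20 were GDF15 (Pearson r = 0.983), IER2 (0.980) and MDM2 (0.964), of which GDF15 and IER2 did not pass. In these, as in CCL20, the lowest CA array was that of plate 1, and the LD arrays, also of plate 1, lay within or below the CA range.

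Several genes of separate function completed the rise. CYP1B1, a monooxygenase of the aryl hydrocarbon receptor battery, rose at 0.214, and VTRNA1-1, a non-coding RNA of the vault particle, at 0.199 (adjusted p = 0.0229). DCLK1, a microtubule-associated kinase, rose at 0.224, but its CA mean of 4.40 was below the level of the negative controls (4.64), so the size of that rise is uncertain. ANXA10, a calcium-dependent membrane-binding protein, rose at 0.21 and was the 1 of 29 S100 proteins and annexins that passed. CD79A encodes a signalling chain of the B cell antigen receptor and rose at 0.268 (adjusted p = 0.0424). Its log2 signals were 10.86, 11.07 and 11.18 in CA and 12.65, 13.62 and 13.42 in HD. With plate as a block CD79A did not pass (adjusted p = 0.175). It was the only one of 14 measured leukocyte markers that passed. Of these 14, 4 were below the negative controls in all groups. The B cell antigen MS4A1 and the T cell gene CD3D had means of 3.69 and 3.05 in HD, against 3.56 and 2.96 in CA. These means were all below the negative controls. The summed list level per member, which includes CD79A, was 6.38 to 6.56 in HD, against 6.25 to 6.36 in CA. The median difference of HD from CA over the list was -0.0392. The epithelial keratins KRT8 and KRT18 had CA means of 17.8 and 15.1.

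The other risers with 1 symbol had slopes between 0.133 and 0.239 per 10 ppm. Among them, CLEC2B, a lectin-like receptor, rose at 0.239 (adjusted p = 0.0170), NR1D2, a circadian nuclear receptor, at 0.203 (adjusted p = 0.0152) and TNFRSF12A, the receptor of the cytokine TWEAK, at 0.207 (adjusted p = 0.0436). SQSTM1, the autophagy receptor p62, rose at 0.146 (adjusted p = 0.0479), KLF11, a Kruppel-like factor, at 0.171 (adjusted p = 0.0465) and FST, the activin antagonist follistatin, at 0.176 (adjusted p = 0.0444). The alpha tubulin TUBA1C rose at 0.140, as did the tubulin pseudogenes TUBAP2 (0.201) and TUBBP2 (0.146), whose probes may share sequence with their parent genes.

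MIR222HG, the host transcript of miR-221 and miR-222, rose at 0.168 per 10 ppm (SE 0.0236, adjusted p = 0.0170). Its log2 signals were 6.49, 6.44 and 6.36 in CA, 6.79, 6.95 and 6.70 in LD, 7.53, 7.51 and 7.37 in MD and 7.50, 7.94 and 7.97 in HD. LD lay above CA and MD above LD without overlap, while HD and MD overlapped. The adjusted p with plate as a block was 0.0648. The array measured the host transcript here and not the mature miRNAs, whose sequences (RefSeq, chromosome X) are shown because both share 1 seed, bases 2 to 8, in capitals.
miR-221-3p: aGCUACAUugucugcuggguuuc
miR-222-3p: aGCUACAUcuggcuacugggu

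Among the falls, FN1 (fibronectin), a glycoprotein of the extracellular matrix, was steepest. Its log2 signals were 13.94, 13.07 and 13.19 in CA, 13.46, 13.91 and 13 in LD, 10.51, 11.28 and 11.36 in MD and 9.94, 10.29 and 10.81 in HD. CA and LD overlapped at a high level, and every MD and HD array was below all of them. The slope was -0.419 per 10 ppm (SE 0.0525, adjusted p = 0.012), a fitted 10.7-fold lower signal at 81.7 ppm than at 0 ppm, and within plates the differences from CA were -0.48 on plate 1 (LD), -2.02 on plate 5 (MD) and -2.84 on plate 6 (HD). FN1 kept its call with the plate as a block (slope -0.375, adjusted p = 0.0337). NRCAM, a cell adhesion molecule of the immunoglobulin family, had log2 signals of 12.06, 11.16 and 11.26 in CA, 11.94, 12.00 and 11.73 in LD, 10.51, 10.57 and 10.63 in MD and 9.58, 9.66 and 10.19 in HD. Its LD arrays lay in the upper part of the CA range, and MD and HD were below both without overlap. Within plates NRCAM differed by -0.17 (LD), -0.59 (MD) and -1.45 (HD), with an adjusted p of 0.141 in the blocked fit. FN1 and NRCAM were the 2 of 28 matrix and adhesion genes that fell, and the list median was 0.0162 (-0.00750 with plate as a block). The promoter of FN1 (chr2:215436019-215436318, minus strand) holds a cyclic AMP response element, TGACGTCA, which was in 1 of 22 fallers, 0 of 34 risers and 1.98% of all promoters.
FN1 promoter: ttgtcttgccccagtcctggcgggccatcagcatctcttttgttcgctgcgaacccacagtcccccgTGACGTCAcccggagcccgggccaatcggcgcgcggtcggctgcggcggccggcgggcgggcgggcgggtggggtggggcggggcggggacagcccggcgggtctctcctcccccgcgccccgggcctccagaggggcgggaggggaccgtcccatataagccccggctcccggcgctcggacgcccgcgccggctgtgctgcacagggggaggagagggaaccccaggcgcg

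Alcohol dehydrogenases, which oxidise ethanol and retinol, were among the falls. ADH6 had log2 signals of 11.53, 11.66 and 11.17 in CA, 10.71, 10.95 and 10.17 in LD, 9.42, 9.76 and 9.33 in MD and 9.23, 8.50 and 9.09 in HD. All 4 groups were in descending order from CA to HD without overlap. The slope was -0.3 per 10 ppm (SE 0.0361, adjusted p = 0.00844) and the call was kept with the plate as a block (slope -0.332, adjusted p = 0.0496). ADH1C fell at 0.274 (adjusted p = 0.0378), and ADH1B had a slope of -0.232 that did not pass (adjusted p = 0.0691). The class I genes are near-identical in sequence, so their signals may share probes. Of the 20 measured alcohol and retinoid dehydrogenases, 1 rose (DHRS9) and 2 fell, with a list median of 0.00140 (-0.0126 with arrays centred on bright clusters). GSTA2, a glutathione transferase, fell at 0.214.

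Of the complement and coagulation genes, 3 of 35 fell and none rose, with a list median of -0.00935 (-0.0462 with plate as a block and -0.0233 with arrays centred on bright clusters). C5, the complement component cleaved to a leukocyte attractant, had log2 signals of 12.54, 13.28 and 13.19 in CA, 12.28, 12.73 and 11.84 in LD, 11.59, 11.73 and 11.79 in MD and 11.19, 10.96 and 11.54 in HD. Every HD and MD array was below every CA and LD array, and the adjusted p with plate as a block was 0.0540. C4BPA, a chain of the complement regulator C4b-binding protein, fell at 0.216, and F5, coagulation factor V, at 0.206 per 10 ppm. APOH, a phospholipid-binding plasma protein, fell at 0.205 and was the 1 of 26 liver-type secreted proteins that passed.

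Falls also included membrane and surface genes. CLDN2, a claudin that forms cation-selective pores in tight junctions, had log2 signals of 14.76, 15.06 and 14.71 in CA, 14.20, 14.38 and 14.03 in LD, 13.57, 14.05 and 14.08 in MD and 12.94, 13.37 and 13.24 in HD. HD lay below all others and LD below CA, and 2 MD arrays were within the LD range. The slope was -0.188 per 10 ppm (SE 0.0253, adjusted p = 0.0152; 0.0788 with the block), and its gradual fit had the largest margin among genes with 1 symbol. TM4SF20 fell at 0.163, ST8SIA4, a polysialyltransferase, at 0.2, and CEACAM7, a carcinoembryonic antigen family member, at 0.206. The alarmin IL33 fell at 0.19 (adjusted p = 0.0385), so that of 31 NF-kB and inflammatory genes 2 rose (CCL20, NFKB2) and 1 fell. Smaller slopes belonged to PDE3A, a phosphodiesterase of cyclic nucleotides (-0.193, adjusted p = 0.0152), LXN, an inhibitor of carboxypeptidases (-0.162, adjusted p = 0.0312), and KCNJ16, an inwardly rectifying potassium channel (-0.187, adjusted p = 0.0424).

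**Figure D2:**
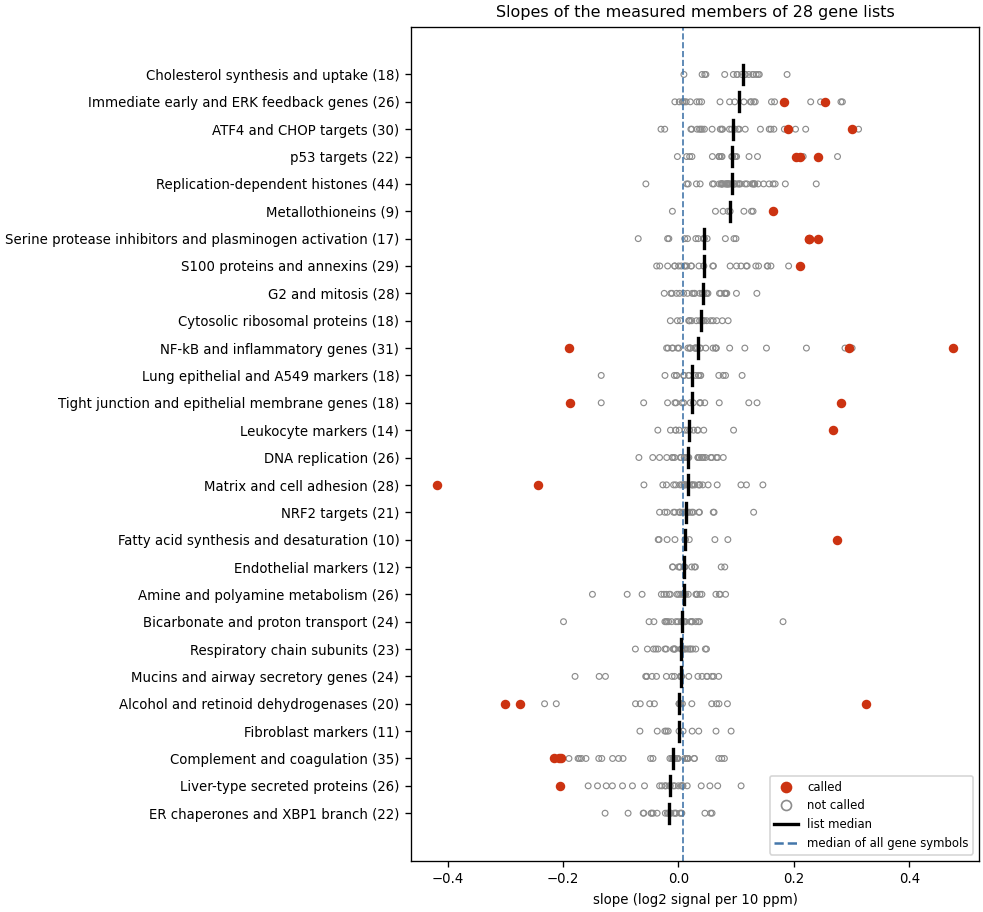
Slopes (log2 signal per 10 ppm) of the measured members of 28 gene lists, with the number of members in parentheses; red points passed the test, open points did not, black bars are list medians and the dashed line is the median of all gene symbols (0.00866). Medians of 6 lists, led by cholesterol synthesis and uptake at 0.112, lie between 0.0895 and 0.112, and none of these 6 lists has a called fall. Called falls in the other lists include 2 dehydrogenase, 2 matrix and 3 complement and coagulation genes.

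The shape of a response was taken from 4 fits of equal size: a line in ppm (gradual), a step between 0 and 14.9 ppm, a step between 14.9 and 41.1 ppm (early step) and a step between 41.1 and 81.7 ppm (late step). The best fit was taken where its AIC, a measure of misfit, was at least 2 below the next. The clusters were selected by slope, which favours gradual and late shapes, so the shapes are a description. Of the 101 clusters, 61 were gradual (39 rising, 22 falling), 11 were early steps (5 rising, 6 falling), 1 was a late step and 28 were not separated. Without the margin, 77 were nearest to a line, 19 to an early step and 5 to a late step. Among all 135750 clusters, which were not selected by slope, the shares were 0.577% gradual, 8.34% first step, 7.47% early step, 3.64% late step and 80% not separated. The 2 sets of shares are therefore not comparable as an enrichment.

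Early steps with 1 symbol were CCL20, PHLDA1, FN1, CATSPERB and OR51E1. PHLDA1, a pleckstrin homology-like protein induced by growth factor signalling, had log2 signals of 9.02, 9.13 and 8.98 in CA, 8.88, 9.09 and 8.91 in LD, 9.79, 10.28 and 10.06 in MD and 10.05, 10.54 and 10.47 in HD. CA and LD overlapped within a narrow range, MD and HD were all higher, and MD overlapped HD. With plate as a block the slope of PHLDA1 had an adjusted p of 0.141. CATSPERB, a subunit of a sperm cation channel, fell at 0.217 and OR51E1, an olfactory receptor, at 0.202 per 10 ppm. The late step was ZNF57, a zinc finger protein, with log2 signals of 7.49, 7.03 and 7.42 in CA, 7.51, 7.45 and 6.99 in LD, 7.39, 7.45 and 7.74 in MD and 8.74, 8.84 and 9.14 in HD. Its CA, LD and MD arrays overlapped, and the 3 HD arrays were above all of them. The late step had an adjusted p of 0.0144, and the slope one of 0.214 with plate as a block.

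In all 101 clusters the MD mean lay beyond the LD mean and the HD mean beyond the MD mean in the direction of the slope, and in 76 the LD mean was also beyond the CA mean. Arrays of HD and CA did not overlap in any of the 101 clusters (10.8% of all clusters), whereas MD and LD did not overlap in 70 (14.4% of all), HD and MD in 60 (9.94%) and LD and CA in 22 (10.3%); these counts describe clusters chosen by the same arrays. Of the change between CA and HD, a median of 15.4% was present at LD (quartiles 0.380% and 28.0%), where a straight line gives 18.2%. At MD the median was 63.4% (quartiles 47.7% and 71.4%), where a line gives 50.3%, and 73 of 101 clusters were past 50%. The 22 fallers with 1 symbol had medians of 25.3% at LD and 70.6% at MD, and the 45 such risers had medians of 11.5% and 61.3%. In 11 risers and 4 fallers the LD mean was on the other side of the CA mean. All LD arrays were on plate 1 and the CA mean covers 3 plates, so these shares and counts include plate differences. Against the CA array of plate 1, LD of CCL20, ASNS, GADD45A, MDM2, FN1, NRCAM and CATSPERB lay on the side of the slope. LD of NFKB2, PHLDA1 and IL33 stayed on the other side there, and the remaining genes of this kind were not compared one by one.

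**Figure D3:**
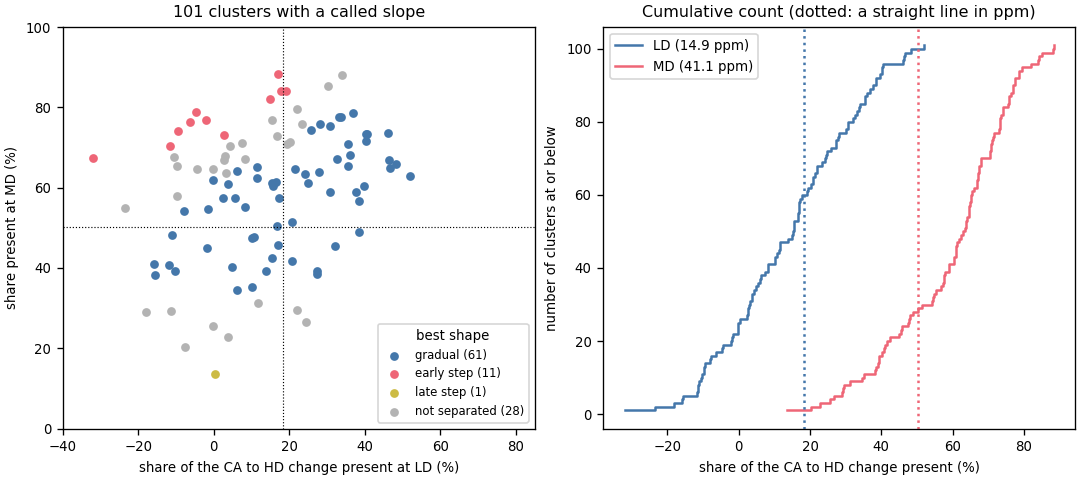
Share of the change between CA and HD that was present at LD and at MD, in percent, for the 101 called clusters; left, each point is a cluster coloured by its best shape, and right, the cumulative number of clusters. Dotted lines mark a straight line in ppm (18.2% at LD, 50.3% at MD), and most clusters lie above the line at MD. The CA mean covers all plates and each dose only its own, so the shares include plate differences.

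Fitted as regressors in their own right, the early step was called for 54 of 135750 clusters (0.0398%; 27 up, 27 down), of which 35 were also called by slope. The late step was called for 2 (0.00147%), both up, and 1 of them was also called by slope. A step complete at 14.9 ppm was called for 0 clusters with limma, with 7428 at an unadjusted p below 0.05, and for 0 with a trended robust prior. It was called for 3 clusters with plate as a block and for 2 without CA replicate 1. Ordinary least squares called 0 clusters for each step and also for the slope, so its 0 cannot tell them apart. A departure of the 4 means from a line was called for 0 clusters, with 8746 at an unadjusted p below 0.05. The departure was called for 0 clusters also with a trended robust prior and with the block, and for 2 without CA replicate 1. Among the 101, 11 had an unadjusted departure p below 0.05, FN1 and CCL20 among them. The early step of FN1 had an adjusted p of 0.000937, and its slope one of 0.0120. With plate as a block, the early step was called for 2 clusters, and 0 of the 54 were among them. FN1 therefore kept its slope call in the blocked fit but not its early step call.

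Of the 17 clusters called with plate as a block, 3 rose and 14 fell, and 5 were among the 101. All 101 kept the sign of the slope with an unadjusted p below 0.05 in that fit, which has 8 residual degrees of freedom. Against the CA array of the same plate, 87 of the 101 moved in the direction of the slope on all 3 plates, and all 101 did so on plate 6 (HD). These counts describe clusters chosen by their slope on the same arrays, so they are no test of the plate. The fit with the block draws each dose against 1 CA array, so an error of that array and the plate cannot be told apart.

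**Figure D4:**
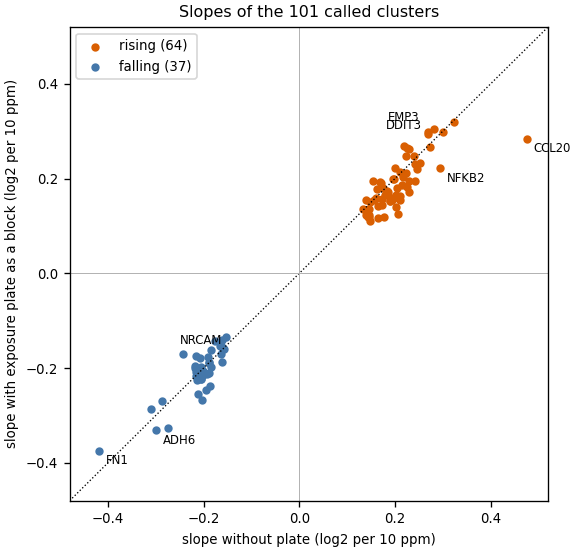
Slopes (log2 signal per 10 ppm) of the 101 called clusters fitted without the plate (x axis) and in the fit that holds plate as a block (y axis); each point is a cluster and the dotted line marks equality. Signs are the same for all 101, which were chosen by their slope on the same arrays. CCL20 lies farthest below the line, at 0.476 without and 0.283 with the block.

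The number of calls depended on single arrays. With 1 array left out, it was 5 without CA replicate 1, 5 without HD replicate 2, 11 without HD replicate 3, 37 without HD replicate 1, 49 without CA replicate 3, 56 without LD replicate 1, 56 without LD replicate 2, 61 without MD replicate 2 and 65 without CA replicate 2. Without LD replicate 3, MD replicate 1 and MD replicate 3 it was 76, 79 and 82. EREG and DDIT3, whose calls were lost with plate as a block, passed in all 12 of these fits (highest adjusted p 0.0479 and 0.0480). ADH6 passed in 11, FN1 and ST8SIA4 in 10, EMP3 and SERPINE2 in 9 and NFKB2 in 6. CCL20 passed in 4, DHRS9 in 3, ADH1C in 2, ACSS2 in 1 and OR51E1 in 0. None of the 40 genes named by rule and followed through these fits changed the sign of its slope. The slope of CCL20 ran between 0.441 and 0.539, and that of FN1 between -0.460 and -0.399.

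**Figure D5:**
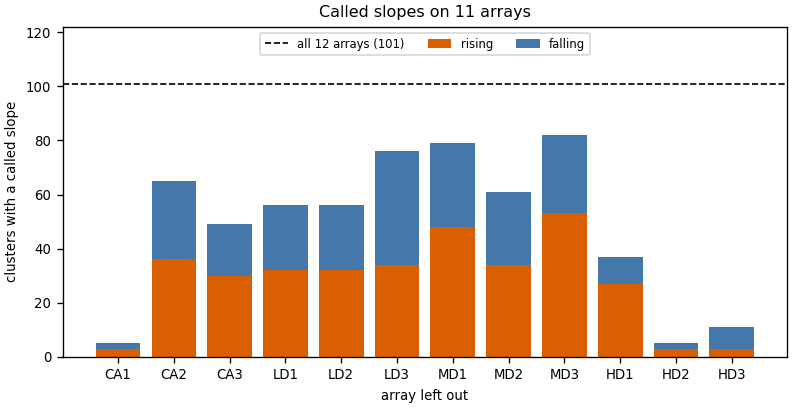
Number of clusters with a called slope when each array in turn was left out, rising clusters in orange and falling clusters in blue; the dashed line marks the 101 calls on all 12 arrays. Bars run from 5 without CA1 or HD2 to 82 without MD3.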

How the data were processed

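The authors scanned Human Clariom D arrays and normalised them by robust multi-array average in the Transcriptome Analysis Console; the deposited values are log2 signals, 1 per transcript cluster and array. Of 138745 rows, 2995 control rows were left out and 135750 were analysed. Symbols came from the probe annotation, updated through RefSeq (GRCh38.p14): 36176 clusters held 1 symbol, 1119 several and 98455 none. Slopes, steps and departures from a line were fitted with lmFit and eBayes of limma 3.58.1 (R 4.3.3, with data.table, version 1.17.8, and statmod, version 1.5.0) on 12 arrays, with 10 residual and 6.17 prior degrees of freedom, two-sided, with Benjamini-Hochberg adjustment over all clusters. CA replicates were numbered by order of deposit. A gene with several clusters is represented in lists by the brightest. Named genes were the 10 steepest rises and falls, those with the largest AIC margin by shape and direction, up to 3 called members of each of 28 lists, and the 3 profiles most like the steepest gene; others were chosen after their values were seen. Members and lists were chosen with earlier results of these data known. The procedure was tested on simulated data with independent noise, which held no plate effect and no shift of whole arrays, so it does not bear on those. Deviations of same-numbered dose arrays correlated at -0.146 to 0.151. Whether the numbers pair arrays is not known, and the main fits took the arrays as unpaired. CA and NEC deviations correlated at 0.261, 0.0707 and 0.204 on plates 1, 5 and 6. Alternatives covered the plate, scaling, filter, variance model, dose scale and control group.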

Additional observations from a re-analysis of the deposited data

How the results depend on the processing

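Slope calls (101) became 17 with the exposure plate as a replicate block, 24 with that block and centred arrays (chosen after seeing the data), 0 with ordinary least squares (9518 at an unadjusted p below 0.05), 156 in a 5-group fit on 15 arrays, 320 with NEC in place of CA, 420 with CA and NEC both at 0 ppm, 2 on log2(ppm + 1), 0 without HD, 0 without CA, also with the replicate number as a block, and 9 without CA replicate 1 and LD replicate 3 (chosen after seeing the data). They were 146 above the negative controls, 147 with a trended robust prior, 103 in a 4-group fit and 78 on dose rank. Centring arrays on their bright clusters gave 118, 60 rising and 58 falling, 74 shared, and moved all-cluster medians by up to 0.44.

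Early step calls (54) became 2 with the block (0 shared with the 54), 103 above the negative controls, 98 with a trended robust prior and 0 with ordinary least squares. In the same order, late step calls (2) became 0, 4, 6 and 0, and they were 10 with centred arrays. First step calls (0) became 3 with the block. Of the 17 clusters called with the block, 7 were gradual. Leaving out 1 array gave 5 to 82 slope, 1 to 115 early step, 0 to 24 late step, 0 to 2 first step and 0 to 2 departure calls. Early step calls fell to 1 without LD replicate 1 or HD replicate 2, 2 without HD replicate 3, 4 without MD replicate 3, 5 without CA replicate 1, 6 without LD replicate 2 and 7 without HD replicate 1, and were 115 without CA replicate 2. The 24 late step calls came without MD replicate 3. None of the 40 genes named by rule reversed its slope in any of these settings, and the other genes mentioned were not followed through them. The causes were not tested. With 3 arrays per group and 1 CA array per plate, precision is limited.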
